A study of Mus musculus with 16 samples.

Results

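The T cell receptor variable (V) segments were read in bulk RNA libraries of T cells from OT-I mice. OT-I is a transgenic line whose CD8 T cells carry an alpha chain of the Trav14 family and a beta chain of the Trbv12 family that together recognise an ovalbumin peptide. The segments were taken as every row of the count table whose symbol begins with Trav or Trbv followed by a digit, which gave 165 of 54456 rows. Of these 130 were alpha (Trav) and 35 beta (Trbv) rows. The Trav14 family had 9 rows and the Trbv12 family 3. For each library the share of Trav counts on Trav14, the share of Trbv counts on Trbv12 and the families that held the rest were measured.

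The 16 libraries formed 4 groups of 4 by tissue and diet, labelled as biological replicates: cells of visceral adipose tissue (VAT) from mice on a high-fat diet (HFD, 60% of kcal from fat), VAT from lean mice on standard chow, lymph nodes (LN) from HFD mice, and LN from lean mice. All mice were OT-I animals kept 8 weeks on their diet. The labels give neither age nor sex, and do not say whether the mice were Rag-deficient or whether animals were pooled, so p-values measure the spread between these samples. The labels call the cells freshly isolated, whereas the design text describes a night in culture before the sort, and the column headers carry the unexplained term Neg-OVA.

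A T cell assembles its alpha chain gene from 1 V and 1 joining (J) segment, and its beta chain gene from a V, a diversity and a J segment. The recombinases Rag1 and Rag2 cut the DNA, and Dntt (terminal transferase) adds bases at the joins. A rearranged transgene limits rearrangement of the cell's own beta genes closely and that of its own alpha genes less so, which is why T cells of receptor-transgenic mice with working Rag genes can carry a second alpha chain. Counts on other V segments can come from such chains, from other cells or from unrearranged segments, and counts per row do not separate these.

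The Trav segments lie on mouse chromosome 14 and the Trbv segments on chromosome 6, and 163 of the 165 symbols were found in the GENCODE M21 annotation (GRCm38), 130 as functional segments and 33 as pseudogenes. Trav13-5 and Trav7d-6 were not matched. Part of the Trav locus is duplicated, and the copies carry the letters d and n. The transcripts of Trav14d-1 and Trav14n-1 are identical over all 415 bases, so reads cannot tell them apart, and the pair is given as a sum. Trav14-1 differs from both, and 249 of its 369 stretches of 31 bases occur in no other receptor gene, so reads can separate it from the pair. The last 280 coding bases are shown for the Trav14 members on which the results turn, from the GENCODE M21 transcripts, all on the plus strand. In Trav14-1 (chr14:53554279-53554558) and Trav14d-1 (chr14:52855887-52856166), capitals mark the 11 positions at which these differ from each other. In Trav14-2 (chr14:53640946-53641225), which was high in 1 library, capitals mark the 10 positions that differ from Trav14d-1.
Trav14d-1: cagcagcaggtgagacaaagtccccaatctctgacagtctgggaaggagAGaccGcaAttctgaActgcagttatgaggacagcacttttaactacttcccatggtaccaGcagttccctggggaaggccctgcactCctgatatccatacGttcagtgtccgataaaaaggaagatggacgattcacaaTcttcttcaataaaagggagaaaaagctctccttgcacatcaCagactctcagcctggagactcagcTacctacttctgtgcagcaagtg
Trav14-1: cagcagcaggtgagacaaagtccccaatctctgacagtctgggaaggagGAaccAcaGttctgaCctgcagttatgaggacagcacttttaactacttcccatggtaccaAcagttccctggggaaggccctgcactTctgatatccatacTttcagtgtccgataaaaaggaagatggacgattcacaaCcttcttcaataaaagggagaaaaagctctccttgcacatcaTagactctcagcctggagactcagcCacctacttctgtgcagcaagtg
Trav14-2: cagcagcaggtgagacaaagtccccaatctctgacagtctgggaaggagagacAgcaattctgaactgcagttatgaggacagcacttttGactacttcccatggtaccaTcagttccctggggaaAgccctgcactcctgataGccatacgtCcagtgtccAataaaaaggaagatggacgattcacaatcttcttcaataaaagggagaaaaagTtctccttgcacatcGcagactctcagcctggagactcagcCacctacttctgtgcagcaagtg

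The beta family is less alike. Trbv12-1 (chr6:41113788-41114067) and Trbv12-2 (chr6:41119085-41119364), shown over the same number of coding bases, differ at 31 positions, in capitals, and 345 of the 359 stretches of 31 bases of Trbv12-1 occur in no other receptor gene. Trbv12-3 is annotated as a pseudogene.
Trbv12-1: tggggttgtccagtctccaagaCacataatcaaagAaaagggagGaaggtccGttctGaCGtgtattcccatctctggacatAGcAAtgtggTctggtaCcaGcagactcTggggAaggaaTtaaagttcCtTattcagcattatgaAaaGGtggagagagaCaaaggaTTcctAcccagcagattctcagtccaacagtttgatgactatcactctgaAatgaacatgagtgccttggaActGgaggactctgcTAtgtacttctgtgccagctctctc
Trbv12-2: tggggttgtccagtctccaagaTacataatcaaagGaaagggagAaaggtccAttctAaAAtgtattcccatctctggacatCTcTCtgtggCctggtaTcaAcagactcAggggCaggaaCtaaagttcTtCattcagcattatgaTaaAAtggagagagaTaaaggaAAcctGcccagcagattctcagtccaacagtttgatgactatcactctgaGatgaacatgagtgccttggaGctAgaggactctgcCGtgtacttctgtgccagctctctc

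Libraries held 40212388 to 65957407 counts, of which 3389 to 7857 were Trav and 72175 to 163236 were Trbv counts. In CPM (counts scaled to a common depth, TMM-adjusted), 3 counts corresponded to 0.0437 to 0.0803 in a library. A row or family was taken as present in a library above 3 counts. By that rule 77 of the 130 Trav rows and 13 of the 35 Trbv rows were present in at least 1 library, 4 Trav and 3 Trbv rows in all 16, and 39 Trav and 12 Trbv rows had no count at all. Only 29 rows, 25 Trav and 4 Trbv, passed the filter on low counts for testing. Of the genes that reached 10 CPM at the median of the other libraries of a group, the share at 3 counts or fewer in a library was 13.3% in lean VAT replicate 1, 11.5% in HFD VAT replicate 3 and 11.4% in HFD VAT replicate 1, and 0.818% to 5.45% in the other libraries.

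The labelled cell type was borne out by its markers. Trac, Trbc1, Trbc2, Cd3e, Cd8a and Cd8b1 were read in all libraries, and Cd4 had 0 to 4 counts in 15 libraries and 265 in lean LN replicate 2. Genes listed for other cells differed by tissue. The 12 B cell genes summed to 169 to 360 CPM in HFD VAT and 85.6 to 221 CPM in lean VAT, against 1919 to 2837 CPM in HFD LN and 1662 to 3370 CPM in lean LN. Igkc and Fcmr had no count in any VAT library, and Ighm was read in both tissues. The 6 natural killer cell genes summed to 401 to 571 CPM in HFD VAT and 263 to 433 CPM in lean VAT, against 13.8 to 113 CPM in HFD LN and 13.9 to 105 CPM in lean LN. The 21 gamma delta T cell genes summed to 1037 to 1445 CPM in HFD VAT and 905 to 1078 CPM in lean VAT, against 789 to 1208 CPM in HFD LN and 410 to 761 CPM in lean LN. The 7 CD4 and regulatory T cell genes summed to 203 to 295 CPM in HFD VAT and 162 to 349 CPM in lean VAT, against 38.2 to 70.4 CPM in HFD LN and 25.5 to 99.5 CPM in lean LN, with 1 count of Foxp3 over all libraries. The 8 macrophage genes summed to 27.4 to 131 CPM in VAT libraries, against 0 to 6.09 CPM in LN libraries, and C1qa had no count in any group. Cd68 had the most counts of these in every VAT library, 1216 to 4876 in HFD VAT and 787 to 3476 in lean VAT. C1qb and Csf1r reached 1178 and 446 counts in HFD VAT replicate 1. Lyz2 had 691 counts in HFD VAT replicate 4 and 738 in lean VAT replicate 4. Adgre1 had at most 1 count in a library, and Cd14 had none in VAT. The 6 genes of invariant natural killer T and MAIT cells summed to 0 to 94.7 CPM in VAT libraries, against 0 to 3.36 CPM in LN libraries. In VAT this sum lay on Klrb1c alone, which is also among the natural killer cell genes. Zbtb16 and the Trav11 rows had no count in VAT, and Zbtb16 was read only in lean LN replicate 1, at 7 counts. Trav1 had no count in any group. By edgeR, described below, 9 of 11 tested B cell genes fell in HFD VAT against HFD LN and 7 of 11 fell in lean VAT against lean LN, and 0 rose. Over all genes tested, 4.56% and 3.04% were called in these comparisons. None of 5 tested natural killer genes and not the 1 tested macrophage gene passed by edgeR in either comparison. At an unadjusted p under 0.05 there were 3 and 4 natural killer genes and 1 and 0 macrophage genes. As higher in VAT, DESeq2 called 3 and 2 natural killer and 1 and 0 macrophage genes, and limma voom 3 and 3 and 1 and 1. Most of the natural killer sum lay on Klra9, with 13628 to 20029 counts in HFD VAT and 11197 to 14898 in lean VAT, against 0 to 873 in HFD LN and 0 to 1155 in lean LN, whereas Ncr1 was read in 1 library alone, at 48 counts in lean VAT replicate 2.

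The CD4 and regulatory list went both ways. Cd40lg, the CD40 ligand of activated helper T cells, had no count in HFD VAT and 0, 136, 140 and 389 counts in lean VAT, against 1578, 2027, 1026 and 1014 in HFD LN and 2128, 1471, 1253 and 1731 in lean LN. It was at least 390-fold lower in HFD VAT than in HFD LN, counted against 3 counts in each library at 0 (edgeR, adjusted p = 0.00358), and was the only one of 5 tested genes called on HFD. Folds counted this way bound the counts read, not the level in the cells. Genes well read in the rest of a group could also be missing from a single library, as above. In lean mice 2 of 5 rose and 0 fell. Over all genes tested, 4.56% were called between tissues on HFD and 3.04% in lean mice. Il2ra, the alpha chain of the interleukin-2 receptor, was at least 434-fold higher in lean VAT than in lean LN, counted likewise (edgeR, adjusted p = 0.0127). Zbtb7b, a transcription factor of the CD4 lineage, rose by 5.22 ± 1.14 (SE) on the log2 scale (edgeR, adjusted p = 0.0196). The Zbtb7b call held in 9 of 15 alternatives and was lost without any 1 lean LN library (edgeR, adjusted p up to 0.0888, and up to 0.140 over all 15). Much of the higher sum in VAT lay on Ctla4 and Ikzf2, which did not pass by edgeR. Ctla4 had 4211 to 5853 counts in HFD VAT, against 0 to 819 in HFD LN (edgeR, adjusted p = 0.316). Ikzf2 had 1872 to 6521 counts in HFD VAT, against 0 to 618 in HFD LN (edgeR, adjusted p = 0.269). Which cells these transcripts came from was not tested, nor was the part of any such cells in the results on V segments. In bulk RNA, fewer cells of a type and less RNA per cell cannot be told apart.

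On the beta chain nearly every V count fell on the transgenic family in all 4 groups. Trbv12 held 99.85%, 99.81%, 99.95% and 99.997% of Trbv counts in HFD VAT replicates 1 to 4, and 99.998%, 99.88%, 99.91% and 99.57% in lean VAT. It held 99.83%, 99.999%, 99.99% and 99.82% in HFD LN, and 99.99%, 99.76%, 99.76% and 99.83% in lean LN. The 4 groups overlapped. Within the family, Trbv12-1 held 98.9% to 99.5% of counts in every library, Trbv12-2 held 0.450% to 0.812% and the pseudogene Trbv12-3 held 0.0505% to 0.467%.

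The share of Trbv counts outside Trbv12 averaged 0.0990% ± 0.0867 in HFD VAT and 0.159% ± 0.185 in lean VAT, and 0.0906% ± 0.0977 in HFD LN and 0.166% ± 0.106 in lean LN (SD, n = 4 each). None of the 7 comparisons of this share passed. The smallest p was 0.229 for HFD LN against lean LN (exact two-sided permutation test, difference of -0.0757 percentage points, adjusted p = 0.56). All permutation p-values were adjusted together by Benjamini-Hochberg over 49 tests, 7 measures in 7 comparisons. With 4 against 4 libraries such a test cannot go below 0.0286, and with diet or tissue as a stratum there are 4900 rearrangements.

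On the alpha chain the transgenic family held the larger part of the counts in every library, but never all of it. Trav14 held 69.8%, 57.4%, 89.1% and 73.7% of Trav counts in HFD VAT and 54.3%, 65.9%, 74.1% and 80.1% in lean VAT. It held 82.1%, 75.0%, 74.5% and 59.3% in HFD LN and 52.2%, 65.8%, 62.0% and 59.7% in lean LN. The highest share was in HFD VAT replicate 3 and the lowest in lean LN replicate 1. The 95% Wilson interval of a share had a half-width of 0.932 to 1.502 percentage points, smaller than the spread between libraries of a group, and covers counting error only. As in the plot of V family shares by group, the 4 groups overlapped.

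**Figure D1:**
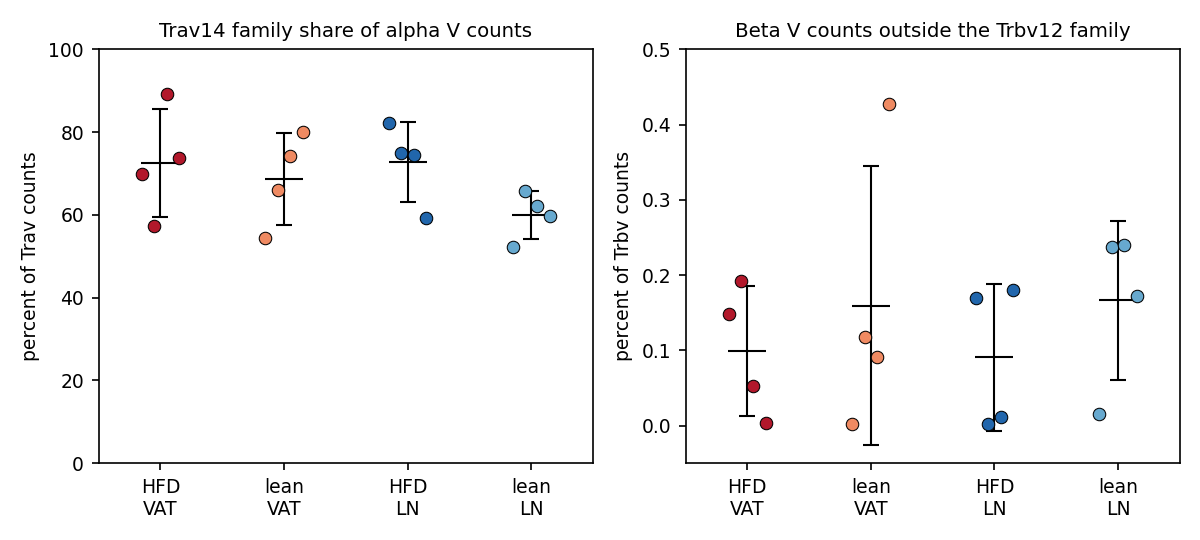
Trav14 share of Trav counts (left, percent) and share of Trbv counts outside Trbv12 (right, percent) in HFD VAT, lean VAT, HFD LN and lean LN; points are libraries, and bars are the mean and SD of 4. The Trav14 share runs from 52.2% to 89.1% and the beta share outside Trbv12 reaches 0.427%, with overlap between all groups.

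The Trav14 share averaged 72.5% ± 13.1 in HFD VAT, 68.6% ± 11.2 in lean VAT, 72.7% ± 9.62 in HFD LN and 59.9% ± 5.70 in lean LN (SD, n = 4 each). The difference between tissues, with diet as stratum, was 4.23 percentage points (exact two-sided permutation test p = 0.414, adjusted p = 0.741). Its size rested on single libraries, from 1.47 percentage points without HFD VAT replicate 3 to 6.75 without HFD VAT replicate 2, with lean VAT replicates 1 and 4 and HFD LN replicate 4 next in weight. The largest difference was that of HFD LN over lean LN, 12.8 percentage points (exact two-sided permutation test p = 0.114, adjusted p = 0.438). None of the 7 comparisons passed.

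Within Trav14, however, the rows that carried the counts differed by tissue. The pair Trav14d-1 and Trav14n-1 led in all 16 libraries. It held 75.1%, 99.1%, 98.3% and 99.4% of Trav14 counts in HFD VAT and 99.1%, 96.3%, 96.7% and 99.0% in lean VAT, against 84.6%, 92.01%, 82.6% and 75.1% in HFD LN and 65.97%, 87.3%, 72.3% and 77.8% in lean LN. VAT and LN libraries thus overlapped only through HFD VAT replicate 1, the library with high Trav14-2. The files split the pair nearly evenly, with 50.2% to 53.7% of its counts on Trav14d-1, and its level did not pass between tissues. Trav14d-1 differed by 0.19 ± 0.39 (SE) on the log2 scale in HFD VAT against HFD LN (edgeR quasi-likelihood test, adjusted p = 0.904) and by 0.66 ± 0.39 in lean VAT against lean LN (edgeR, adjusted p = 0.57).

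Trav14-1 was lower in VAT on both diets. It had 16, 9, 16 and 5 counts in HFD VAT and 19, 5, 12 and 19 counts in lean VAT, against 552, 209, 555 and 303 counts in HFD LN and 965, 398, 403 and 594 counts in lean LN. Every VAT library lay below every LN library. Its mean level was 0.275 ± 0.140 CPM in HFD VAT, against 8.05 ± 3.53 CPM in HFD LN (SD, n = 4 each). The lean groups had 0.307 ± 0.174 CPM in VAT, against 10.02 ± 3.20 CPM in LN. On the log2 scale Trav14-1 fell by 4.86 ± 0.82 (SE) in HFD VAT against HFD LN (edgeR quasi-likelihood test, Benjamini-Hochberg adjusted p = 0.00242) and by 5.02 ± 0.82 in lean VAT against lean LN (edgeR, adjusted p = 0.00237), 29.0-fold and 32.5-fold. As a share of Trav14 counts, Trav14-1 was 0.129% to 0.553% in the VAT libraries and 5.39% to 23.5% in the LN libraries.

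By edgeR it was the only V row that passed in either tissue comparison, so 1 of 29 tested rows fell and 0 rose in each, and 8 rows on HFD and 5 in lean mice had an unadjusted p under 0.05. Over all 15675 genes tested, 4.56% were called in HFD VAT against HFD LN and 3.04% in lean VAT against lean LN, so the number of V rows called by edgeR was near that background. DESeq2 called 5 rows on HFD, adding Trav14-2, Trav14-3, Trav15-1-dv6-1 and Trav16, and 3 in lean mice, adding Trbv11 and Trbv12-1. Limma voom called Trav14-1 alone on HFD and 3 rows in lean mice, adding Trav8-2 and Trbv12-1. The Trav14-1 call held in all 16 alternatives for each diet, with adjusted p up to 0.0411. The median log2 fold change of the 29 tested rows was -0.67 on HFD and -0.82 in lean mice, beside -0.10 and -0.0029 over all genes. Summed by family, no Trav or Trbv family passed in these comparisons by edgeR, in which 4.55% and 3.03% of all rows were called. Of the 17 families tested, 4 and 3 had an unadjusted p under 0.05. DESeq2 called 2 and 3 families and limma voom 0 and 2.

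**Figure D2:**
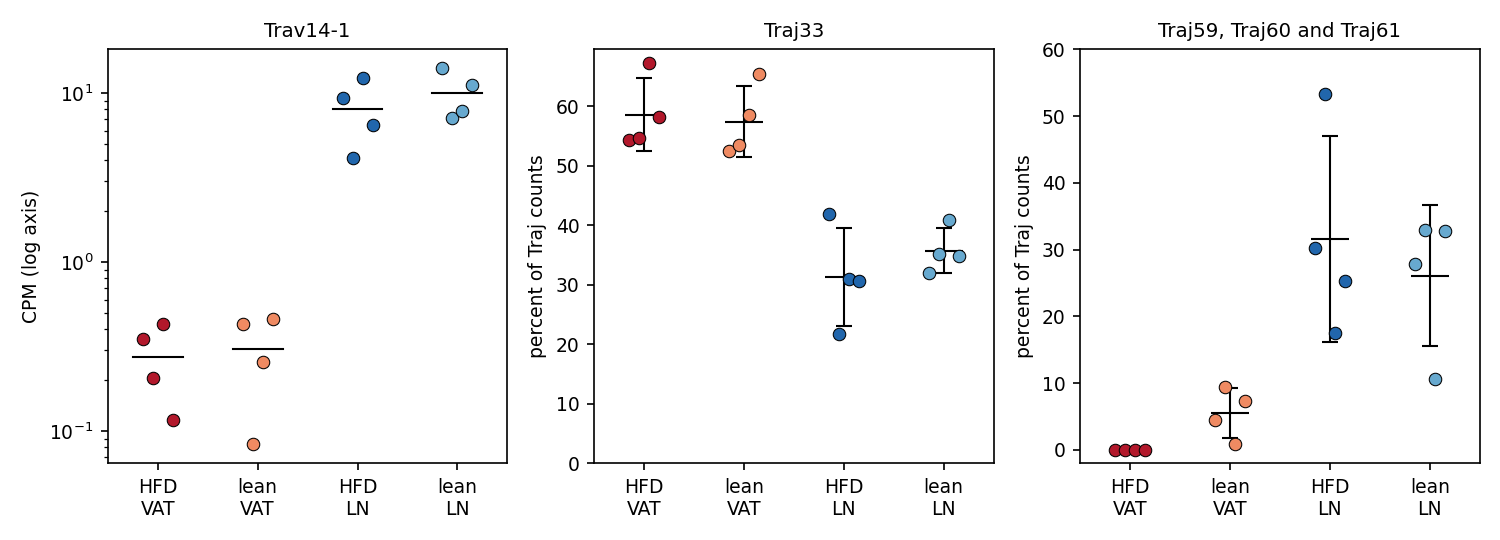
Trav14-1 level in CPM on a log axis (left), Traj33 share of Traj counts (middle, percent) and summed Traj59, Traj60 and Traj61 share of Traj counts (right, percent) in HFD VAT, lean VAT, HFD LN and lean LN; points are libraries, the line in the left panel is the mean and the bars in the others are the mean and SD of 4. Every VAT library lies below every LN library for Trav14-1 and above every LN library for Traj33, and HFD VAT libraries are at 0 for Traj59, Traj60 and Traj61.

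The minor Trav14 rows varied widely between libraries of a group. Trav14-2 had 878 counts, 23.9% of Trav14, in HFD VAT replicate 1 and 1, 3 and 2 counts in the other HFD VAT libraries, 1 to 82 counts in lean VAT, 3 to 15 in HFD LN and 14 to 111 in lean LN. Its row did not pass by edgeR (HFD VAT against HFD LN, log2 fold change 5.21 ± 2.04 (SE), adjusted p = 0.183), though it did by DESeq2 (adjusted p = 0.00724). Trav14-3 had 7, 5, 2 and 0 counts in HFD VAT, against 190, 74, 7 and 295 in HFD LN. In lean mice it had 0, 11, 59 and 6 counts in VAT, against 340, 8, 373 and 6 in LN. Trav14-3 thus reached 8.28% to 11.6% of Trav14 in 3 LN libraries and at most 1.23% in VAT, and its row did not pass by edgeR (HFD VAT against HFD LN, log2 fold change -5.07 ± 1.88 (SE), adjusted p = 0.158), though it did by DESeq2 (adjusted p = 0.00678). Trav14d-3-dv8 had 4 to 31 counts in 15 libraries and 215 in lean LN replicate 3. Trav14n-3 had 1 to 47 counts, and the identical rows Trav14d-2 and Trav14n-2 had at most 13 and 11 counts, both in lean LN replicate 1.

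Among the tested V rows, 3 of 29 had no overlap in CPM between HFD VAT and HFD LN (Trav14-1, Trav14-3 and Trav21-dv12) and 1 of 29 between lean VAT and lean LN (Trav14-1), beside 15.2% and 12.9% of all genes tested. For Trav14-3 the nearest libraries, HFD VAT replicate 1 and HFD LN replicate 3, tied at 7 counts and were parted by scaling alone.

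The counts outside Trav14 were spread over 19 families, of which 18 were present in at least 1 library. Trav13 was the largest in 14 of 16 libraries and the only one present in all, and it held 31.7% of these counts over all libraries. It had 730, 748, 327 and 635 counts in HFD VAT, 386, 122, 1024 and 211 in lean VAT, 504, 909, 263 and 309 in HFD LN, and 1057, 853, 686 and 370 in lean LN. Most lay on Trav13-5, which had 6419 of the family's 9134 counts and was read in 15 libraries but had no count in lean VAT replicate 1. The family as a whole did not pass in any comparison (edgeR, HFD VAT against HFD LN, log2 fold change 0.54 ± 0.74 (SE), adjusted p = 0.827).

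Trav12 came next with 15.8% of the counts outside Trav14. It had no count in any HFD VAT library, against 2632, 859, 43 and 119 counts in lean VAT. In the lymph nodes it had 0, 56, 56 and 93 counts on HFD and 273, 0, 154 and 287 in lean mice. In lean VAT replicate 1 it made up 33.9% of all Trav counts, 2345 of its 2632 counts lying on the single row Trav12-2, and in lean VAT replicate 2 it made up 16.02%. HFD VAT and lean VAT did not overlap, beside 3.22% of all genes, yet the difference did not pass (edgeR on family sums, unadjusted p = 0.0013, adjusted p = 0.314). DESeq2 on the same sums gave an adjusted p of 3.5e-07.

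The remaining families came and went by library. Trav15 held 7.14% of the counts outside Trav14 and was present in 15 libraries, Trav21 held 5.68% in 9, Trav5 5.36% in 7 and Trav6 5.01% in 13. Trav9, at 4.06%, was present in 4 libraries and had 429 counts in lean VAT replicate 1, 240 in HFD LN replicate 4 and 457 in lean LN replicate 2. Trav17 was present in 2 lean LN libraries alone, at 362 and 203 counts. Trav11, the family of the invariant natural killer T cell receptor, had 41 counts in all and was present in 2 lean LN libraries.

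**Figure D3:**
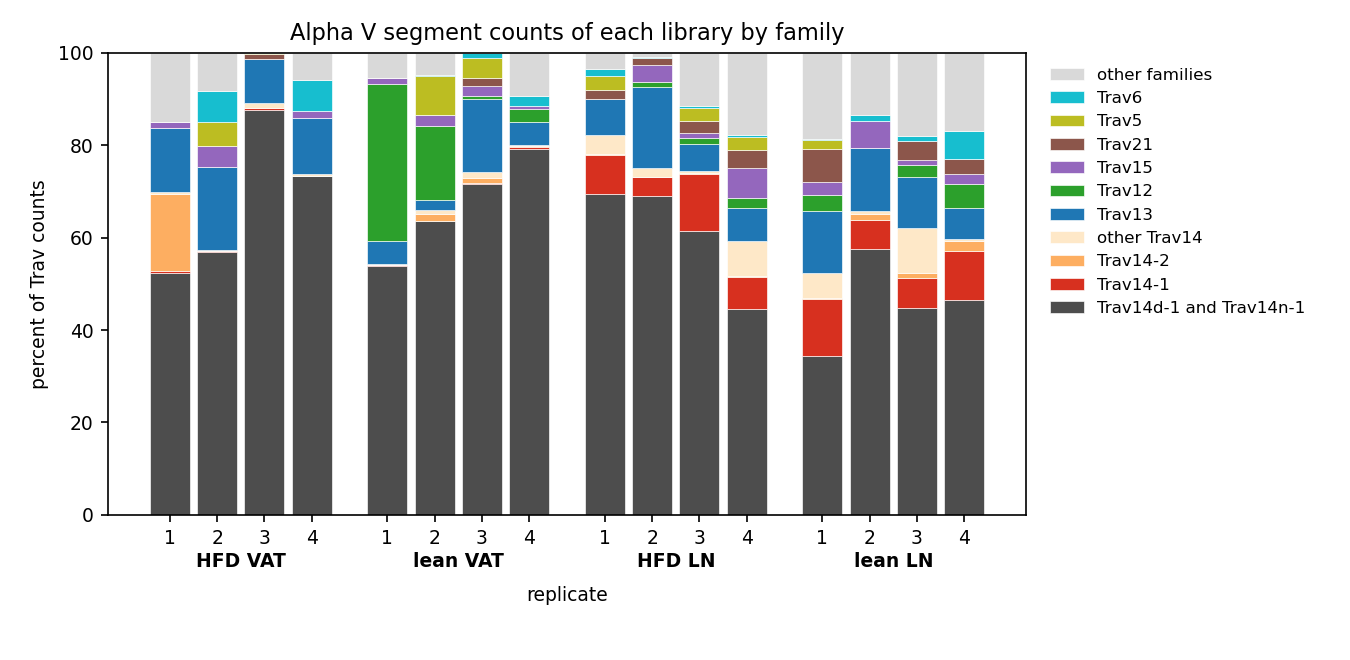
Percent of Trav counts by segment or family in each library, with replicates 1 to 4 of HFD VAT, lean VAT, HFD LN and lean LN; colours are the segments or families in the legend. Trav14d-1 and Trav14n-1 lead in all libraries, Trav14-1 is visible in LN, and single libraries carry large shares of Trav14-2 (HFD VAT replicate 1) or Trav12 (lean VAT replicate 1).

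The number of alpha families present outside Trav14 had a median of 5.5 over the VAT libraries, against 10.5 over the LN libraries. By library, 5, 5, 2 and 6 families were above 3 counts in HFD VAT and 4, 8, 6 and 8 in lean VAT, against 8, 7, 9 and 12 in HFD LN and 14, 6, 12 and 13 in lean LN. The tissues overlapped at 6 to 8 families. The 3 libraries with most missing genes were all from VAT. These were HFD VAT replicates 1 and 3 and lean VAT replicate 1, with 5, 2 and 4 families. The part of missing genes in the number of families present was not tested. The effective number of these families (inverse Simpson index, which equals the number of families when their counts are even) was 2.93, 3.76, 1.26 and 3.27 in HFD VAT and 1.73, 3.30, 2.40 and 6.09 in lean VAT, against 3.88, 1.91, 6.64 and 7.81 in HFD LN and 6.90, 3.84, 7.15 and 9.15 in lean LN. Group means were 2.81 ± 1.08, 3.38 ± 1.92, 5.06 ± 2.67 and 6.76 ± 2.19 in the same order (SD, n = 4 each). The tissue difference with diet as stratum was -2.81 families (exact two-sided permutation test p = 0.0163, adjusted p = 0.22), which failed the correction. The difference by diet with tissue as stratum was -1.14 (exact two-sided permutation test p = 0.276, adjusted p = 0.614).

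The mix of other families differed widely between libraries of a group. By Bray-Curtis dissimilarity, which is 0 for equal profiles and 1 for profiles with no shared family, the 120 pairs of libraries ran from 0.212 to 0.927 with a median of 0.594. Between HFD VAT and HFD LN it averaged 0.552, against 0.513 within these groups (exact two-sided permutation test p = 0.371, adjusted over 4 comparisons p = 0.495). HFD VAT against lean VAT gave the largest excess, 0.677 between and 0.568 within groups (exact two-sided permutation test p = 0.0571, adjusted over 4 comparisons p = 0.229). None of the 4 comparisons passed.

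The few beta counts outside Trbv12 lay on 1 or a few families in each library. From 0 to 5 families were present in a VAT library and 0 to 4 in an LN library, and 10 different families were the largest in at least 1 of the 16 libraries. Trbv11, a pseudogene at chr6:41107044-41107303 (GRCm38), held 43.4% of these counts. It had 0, 209, 0 and 0 counts in HFD VAT and none in lean VAT, against 161, 0, 0 and 202 in HFD LN and 0, 301, 73 and 31 in lean LN. It did not pass in any comparison by edgeR (lean VAT against lean LN, log2 fold change -9.52 ± 3.85 (SE), adjusted p = 0.289), though DESeq2 on family sums called it there (adjusted p = 1.6e-08). Trbv20 had 149 counts in HFD VAT replicate 1, 98 in HFD LN replicate 1 and 94 in lean LN replicate 3, and at most 1 count elsewhere. Trbv24 with 141 and Trbv15 with 105 counts led in lean VAT replicate 4, the library with the largest share outside Trbv12. The other families that led a library were Trbv31 (102 counts, lean LN replicate 4), Trbv16 (97, lean LN replicate 3), Trbv18 (67, lean VAT replicate 3), Trbv10 (51, lean VAT replicate 2), Trbv14 (33, HFD VAT replicate 3) and Trbv13 (11, lean LN replicate 1). HFD VAT replicate 4, lean VAT replicate 1 and HFD LN replicate 2 had 2 or 3 counts outside Trbv12 in all.

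**Figure D4:**
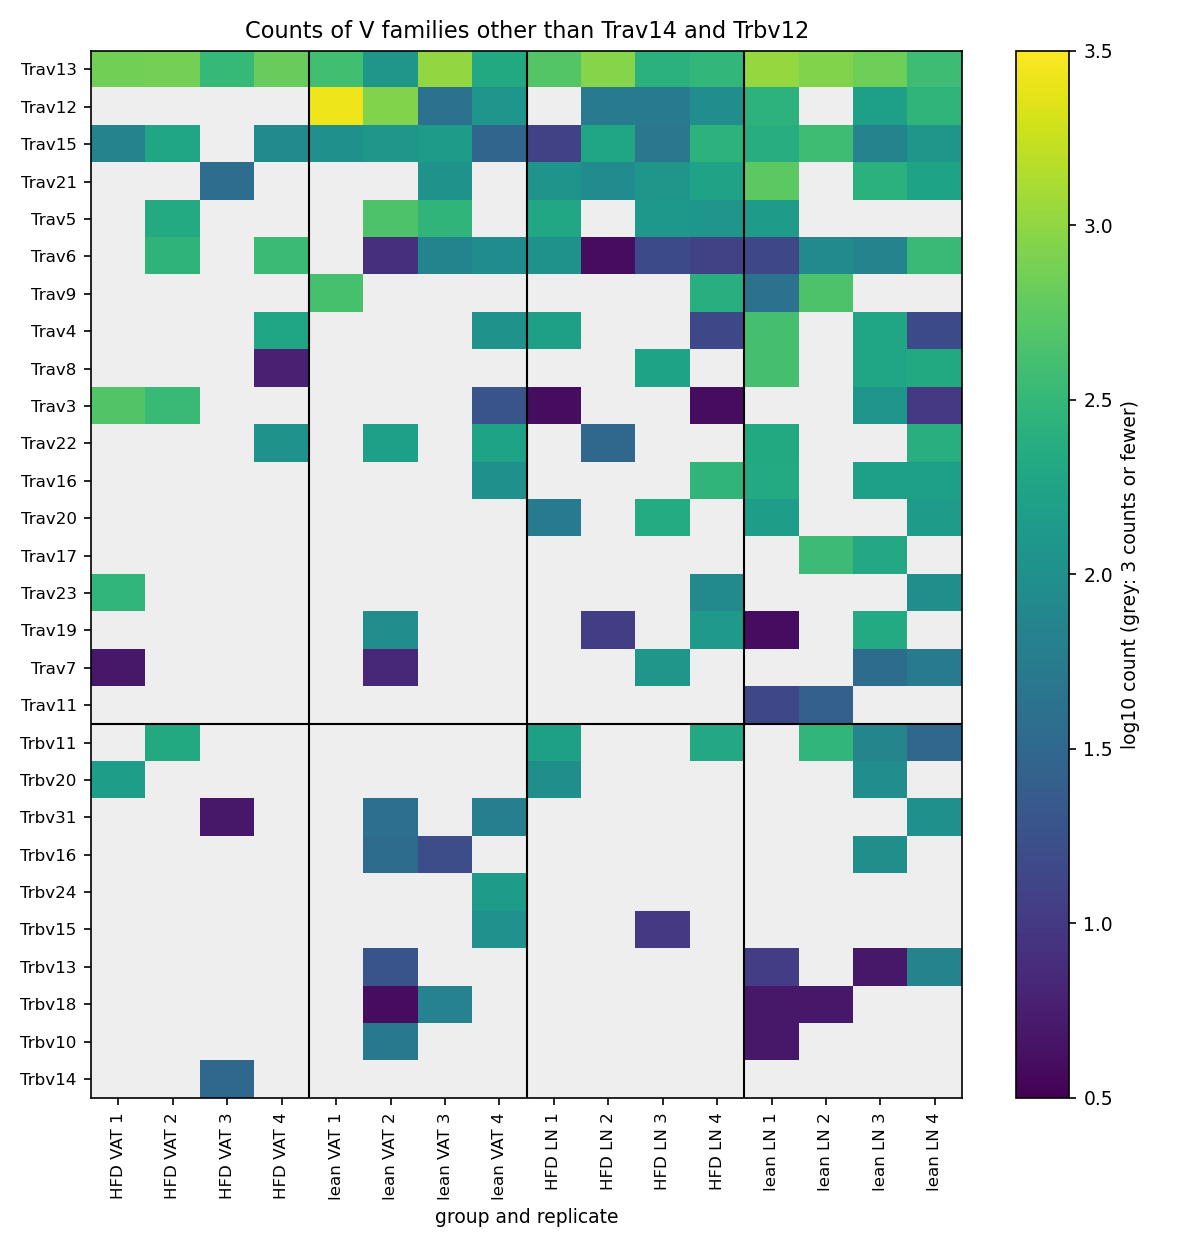
Counts of the 28 V families other than Trav14 and Trbv12 that exceeded 3 counts in at least 1 library (rows, alpha above the horizontal line) in the 16 libraries (columns, grouped as HFD VAT, lean VAT, HFD LN and lean LN), on a log10 colour scale with grey for 3 counts or fewer. Trav13 fills every column, while most beta families are present in 1 to 4 libraries.

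No V row passed between diets in either tissue by edgeR. In HFD VAT against lean VAT 0 of 29 rows passed by edgeR, 4 had an unadjusted p under 0.05, and 0.0574% of all genes were called. DESeq2 called 5 rows and limma voom 0. In HFD LN against lean LN 0 of 29 passed by edgeR, 2 had an unadjusted p under 0.05, 0.0% of all genes were called, and DESeq2 and limma voom called 0. For the difference of the diet effect in VAT from that in LN, 0 of 29 passed by edgeR, 1 had an unadjusted p under 0.05, 0.0191% of all genes were called, DESeq2 called 3 and limma voom 0. By family, edgeR called 0 in all 3 comparisons, beside 0.0575%, 0.0% and 0.0192% of all rows, with 4, 0 and 2 at an unadjusted p under 0.05, and DESeq2 called 4, 0 and 4 and limma voom 0. The rows called by DESeq2 in VAT by diet were Trav12-2, Trav15-1-dv6-1, Trav16 and Trbv11, each at 0 in all 4 HFD VAT or all 4 lean VAT libraries, and Trbv12-1. Trbv12-1 was also the only tested V row with no overlap between HFD LN and lean LN, beside 2.26% of all genes. No tested V row was without overlap between HFD VAT and lean VAT, beside the 3.22% above.

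The summed level of beta V segments was 2262, 2497, 2165 and 2238 CPM in HFD VAT and 2350, 2117, 1979 and 1738 CPM in lean VAT. It was 2621, 2623, 2444 and 2441 CPM in HFD LN and 2378, 2342, 2222 and 2221 CPM in lean LN. All HFD LN libraries lay above all lean LN libraries (difference 242 CPM, exact two-sided permutation test p = 0.0286, the smallest possible, adjusted p = 0.28). With the other factor as stratum, VAT differed from LN by -243 CPM (exact two-sided permutation test p = 0.0094, adjusted p = 0.22) and HFD from lean by 243 CPM (exact two-sided permutation test p = 0.0073, adjusted p = 0.22). Neither passed with TMM scaling. The diet difference passed without lean VAT replicate 1 (294 CPM, exact permutation test, adjusted p = 0.02). Without scaling factors the tissue difference was -519.8 CPM and passed (exact permutation test, adjusted p = 0.02). With RLE factors the diet difference was 307 CPM and passed (exact permutation test, adjusted p = 0.02).

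Alpha V segments summed to 106 ± 15.4 CPM in HFD VAT, 127 ± 38.6 CPM in lean VAT, 101 ± 7.92 CPM in HFD LN and 113 ± 7.05 CPM in lean LN (SD, n = 4 each), with no comparison past the threshold. Per 100 counts of the alpha constant region Trac there were 6.43 ± 1.05 Trav counts in HFD VAT, 8.24 ± 1.30 in lean VAT, 7.95 ± 1.19 in HFD LN and 9.80 ± 1.84 in lean LN. The stratified differences were -1.83 for HFD against lean (exact two-sided permutation test p = 0.018, adjusted p = 0.22) and -1.55 for VAT against LN (exact two-sided permutation test p = 0.0392, adjusted p = 0.32). Per 100 counts of the beta constant regions Trbc1 and Trbc2 there were 41.8 ± 5.77 Trbv counts in HFD VAT, 43.0 ± 6.84 in lean VAT, 42.7 ± 4.72 in HFD LN and 44.2 ± 4.36 in lean LN, and none of the 7 comparisons passed. These ratios are of counts and are not corrected for length.

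Among the alpha joining segments, Traj33 led in all libraries but HFD LN replicate 2, where Traj59 led, and held 54.3%, 54.6%, 67.3% and 58.2% of Traj counts in HFD VAT and 52.4%, 53.4%, 58.5% and 65.3% in lean VAT, against 41.9%, 21.7%, 30.9% and 30.7% in HFD LN and 31.9%, 35.2%, 40.9% and 34.8% in lean LN. Every VAT library lay above every LN library in this share, which was not tested, while the level of Traj33 itself did not pass (edgeR, log2 fold change 0.88 ± 0.40 (SE), adjusted p = 0.252 on HFD and 0.74 ± 0.40, adjusted p = 0.485 in lean mice).

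Traj61, Traj60 and Traj59, the J segments nearest to the V segments, were lower in HFD VAT. Traj61 had no count in HFD VAT and 183, 105, 31 and 45 counts in lean VAT, against 369, 337, 228 and 168 in HFD LN and 342, 206, 146 and 402 in lean LN. It was at least 75.7-fold lower in HFD VAT than in HFD LN and at least 26.9-fold lower than in lean VAT, counted against 3 counts in each library at 0. These folds bound the counts read only. Both differences passed (edgeR, adjusted p = 0.000151 and 0.0128), as did the difference of the diet effect in VAT from that in LN (edgeR, log2 scale -9.75 ± 1.21 (SE), adjusted p = 0.0461). The first held in all 16 alternatives. The second held in 13 of 16, and among the others it was lost without the filter on low counts (edgeR, adjusted p = 0.154) and with only these groups fitted (edgeR, adjusted p = 0.266, the highest over all 16). The third held in 8 of 23 alternatives. It was lost without any 1 of 12 of the 16 libraries (edgeR, adjusted p up to 0.255), with the filter at 5 CPM (edgeR, adjusted p = 0.0971) and without a filter on low counts (edgeR, adjusted p = 0.366, the highest over all 23). Traj59 and Traj60 also fell in HFD VAT, at least 134-fold and 107-fold against HFD LN (edgeR, adjusted p = 0.0213 and 0.0228). Without HFD VAT replicate 1 neither passed (edgeR, adjusted p = 0.053 and 0.0559), and Traj60 also missed the threshold without HFD VAT replicate 2 or replicate 3 (edgeR, adjusted p up to 0.0559 over the 8 fits without 1 library). Without the filter on low counts both were lost (edgeR, adjusted p = 0.0547 and 0.0608, the highest over all 16). In lean VAT they were read in replicates 2 and 4, at 142 and 55 counts for Traj59 and 135 and 60 for Traj60, with none in replicates 1 and 3. Together the 3 rows held 0% of Traj counts in HFD VAT, 0.885% to 9.46% in lean VAT, 17.5% to 53.3% in HFD LN and 10.6% to 32.9% in lean LN. Traj60 and Traj61 are annotated as pseudogenes, and transcripts of 54 to 72 bases such as these leave few positions for a read. Of 60 Traj rows 29 were tested. In HFD VAT against HFD LN 3 fell and 0 rose by edgeR, where 4.56% of all genes were called, with a median log2 fold change of 0.35 beside -0.10 over all genes. In lean VAT against lean LN 0 rose and 0 fell by edgeR, where 3.04% of all genes were called, with 3 rows at an unadjusted p under 0.05 and a median of -0.25 beside -0.0029. DESeq2 and limma voom each called 2 rows higher and 1 lower in lean VAT than in lean LN.

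The beta joining and diversity segments were tested in all 16 rows. In lean VAT against lean LN, 2 fell, Trbj1-1 by 0.87 ± 0.13 (SE) and Trbj1-2 by 0.84 ± 0.19 on the log2 scale (edgeR, adjusted p = 0.00155 and 0.0232), and 0 rose. Over all genes tested 3.04% were called there. The call of Trbj1-2 held in 8 of 16 alternatives and was lost without lean VAT replicate 3 or any 1 lean LN library (edgeR, adjusted p up to 0.0669), without the filter on low counts (edgeR, adjusted p = 0.112) and with only these groups fitted (edgeR, adjusted p = 0.166, the highest over all 16). In HFD VAT against HFD LN 0 rose and 0 fell by edgeR, where 4.56% of all genes were called, with 2 rows at an unadjusted p under 0.05. DESeq2 called 6 rows lower on HFD and 8 in lean mice, and limma voom 1 and 7. The medians of the 16 rows were -0.67 on HFD and -0.75 in lean mice, beside -0.10 and -0.0029 over all genes. Trbj1-1 averaged 188 ± 16.3 CPM in HFD VAT and 115 ± 4.91 CPM in lean VAT, against 251 ± 24.9 CPM in HFD LN and 210 ± 15.9 CPM in lean LN (SD, n = 4 each).

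Of the genes of V(D)J recombination, Rag1 had at most 7 counts in a library and Rag2 had none. Dntt had no count in HFD VAT and 0, 1349, 0 and 1046 counts in lean VAT, against 2549, 376, 1537 and 1637 in HFD LN and 3899, 2040, 1834 and 2008 in lean LN. Counted against 3 counts in each library at 0, its level as read was at least 421-fold lower in HFD VAT than in HFD LN (edgeR, adjusted p = 0.0297). That call held in 5 of 16 alternatives and was lost without any 1 of the HFD libraries other than HFD LN replicate 2 (edgeR, adjusted p up to 0.0685), without the filter on low counts (edgeR, adjusted p = 0.0501) and with limma voom (adjusted p = 0.082, beside at most 0.102 over all 16). Hmgb2, a DNA-bending protein that aids Rag cutting and has other roles in dividing cells, rose by 0.60 ± 0.14 (SE) on HFD (edgeR, adjusted p = 0.0282) and by 0.76 ± 0.14 in lean mice (edgeR, adjusted p = 0.00804). The HFD call held in 7 of 16 alternatives and was lost without HFD VAT replicate 3 or 4 or any 1 HFD LN library (edgeR, adjusted p up to 0.0769), with only these groups fitted (edgeR, adjusted p = 0.0697) and without the filter on low counts (edgeR, adjusted p = 0.110, the highest over all 16). Of 12 listed genes 10 were tested. On HFD 1 rose and 1 fell, with a median of -0.73, and in lean mice 1 rose and 0 fell, with a median of -0.86. Over all genes tested, 4.56% were called on HFD and 3.04% in lean mice, with medians of -0.10 and -0.0029.

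Neither the alpha nor the beta constant regions passed between tissues by edgeR. Trac differed by 0.37 in both tissue comparisons and Trbc1 and Trbc2 by -0.28 to -0.02 on the log2 scale, none past the threshold by edgeR. Trac passed in HFD VAT against HFD LN by DESeq2 and limma voom (adjusted p = 0.0209 and 0.0497) and in lean VAT against lean LN by limma voom (adjusted p = 0.0317). Of 11 genes of the receptor constant regions, CD3 complex and coreceptors 9 were tested. Cd8a rose by 1.64 ± 0.15 (SE) in HFD VAT against HFD LN and by 1.36 ± 0.15 in lean VAT against lean LN (edgeR, adjusted p = 1.68e-05 and 9.1e-05). Cd8b1, the partner chain of the coreceptor, fell by 0.75 ± 0.13 and by 0.59 ± 0.13 (edgeR, adjusted p = 0.00241 and 0.0179). Cd247, the zeta chain, fell by 0.85 ± 0.18 in lean VAT against lean LN (edgeR, adjusted p = 0.0187). The Cd247 call held in 9 of 16 alternatives, and was lost without lean VAT replicate 3 or 4 or lean LN replicate 1, 3 or 4 (edgeR, adjusted p up to 0.0638) and with only these groups fitted (edgeR, adjusted p = 0.0704, the highest over all 16). The lean Cd8b1 call held in 11 of 16, and was lost without lean VAT replicate 2 or lean LN replicate 2 (edgeR, adjusted p = 0.0512 and 0.0549), with the filter at 5 CPM (edgeR, adjusted p = 0.0706) and with only these groups fitted (edgeR, adjusted p = 0.123, the highest over all 16). Cd8a averaged 2077 ± 215 CPM in HFD VAT and 1840 ± 145 CPM in lean VAT, against 665 ± 112 CPM in HFD LN and 718 ± 127 CPM in lean LN (SD, n = 4 each).

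Of the 21 gamma delta T cell genes 18 were tested. By edgeR 1 rose and 0 fell in HFD VAT against HFD LN, with a median log2 fold change of -0.21, and 2 rose and 0 fell in lean VAT against lean LN, with a median of 0.80. Over all genes tested, 4.56% and 3.04% were called in these comparisons, with medians of -0.10 and -0.0029. The number of gamma delta genes called on HFD was near that background. DESeq2 called 5 higher and 1 lower on HFD and 5 higher in lean mice, and limma voom 1 and 4 higher. Trgc4, a gamma chain constant region, rose by 3.10 ± 0.29 (SE) on HFD and by 4.30 ± 0.30 in lean mice (edgeR, adjusted p = 2.05e-05 and 3.45e-06), and both calls held in all 16 alternatives. It averaged 432 ± 66.2 CPM in HFD VAT and 292 ± 63.5 CPM in lean VAT, against 50.5 ± 16.4 CPM in HFD LN and 14.8 ± 4.53 CPM in lean LN (SD, n = 4 each). Trdc, the delta chain constant region, rose by 0.67 ± 0.16 (SE) in lean mice (edgeR, adjusted p = 0.0361), a call that held in 4 of 16 alternatives and was lost without any 1 library of the lean groups other than lean VAT replicate 2 (edgeR, adjusted p up to 0.135, and up to 0.1997 over all 16). Scart1 and Scart2 did not pass by edgeR, and Scart1 was called lower in HFD VAT by DESeq2 (adjusted p = 0.0141). Scart1, a scavenger receptor found on gamma delta T cells, had 1674 to 5867 counts in HFD VAT, against 11779 to 19846 in HFD LN (edgeR, log2 fold change -1.77 ± 0.53 (SE), adjusted p = 0.0839). Its relative Scart2 had 0 to 5294 counts in HFD VAT, against 8429 to 24726 in HFD LN (edgeR, log2 fold change -1.80 ± 1.51 (SE), adjusted p = 0.642).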

How the data were processed

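RNA of OT-I T cells was sequenced in 16 libraries. The deposited table holds whole-number counts per gene symbol. The tools were kallisto 0.42.4 and DESeq2, per the submitters' processing notes, which name GRCh38, a human build, although the symbols are mouse. The labels also name conflicting kits and sequencers and carry a growth protocol for human synovial fibroblasts. How counts were summed per symbol is not given in the sources used here.

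Members and gene lists were chosen with earlier results of these data known. The genes named are the Trav14 and Trbv12 rows, every V row or family past the threshold, the largest other family of each chain in each library, listed genes that passed, and fixed receptor and recombination genes. Traj33, the genes of other cell types and the other V rows and families named were chosen after their values were seen. Counts were fitted in R 4.3.3 with edgeR 4.0.16 (TMM, filterByExpr, robust quasi-likelihood test, all 4 groups in 1 fit), with Benjamini-Hochberg adjustment over 15675 genes and a threshold of 0.05; rows were also summed by family and refitted. The SE is the size of the log2 fold change over the square root of F. The common dispersion was 1.52. Shares and sums were compared by exact permutation tests (SciPy 1.17.1). Alternatives were DESeq2 1.42.0, limma 3.58.1 voom, other filters and scalings, a replicate block, leaving out each library, and, chosen after seeing the data, leaving out the 3 VAT libraries with most missing genes. The edgeR fit was tested on simulated counts with large changes, in HFD VAT against HFD LN alone. Sequences and coordinates are from GENCODE M21 (GRCm38), not the submitters' build, matched by symbol. Protein sequences were not used here. Intervals are 95% Wilson intervals and cover counting error only.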

Additional observations from a re-analysis of the deposited data

Results flagged for a closer look

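Among 76 combinations of a group and a V measure, 7 had a library that stood apart from the other 3 of its group by Dixon's criterion. For normally distributed values chance flags about 1 of 20 groups, a rate that need not hold for rows with few counts. Trav14-2 was 19.2 CPM in HFD VAT replicate 1 and 0.0228 to 0.0803 CPM in the others. Trav14d-3-dv8 was 4.16 CPM in lean LN replicate 3 and 0.131 to 0.452 CPM in the others. Trav14-3 was 1.26 CPM in lean VAT replicate 3 and 0 to 0.184 CPM in the others. Trbv12-2 was 19.1 CPM in lean VAT replicate 1, one of the libraries with most missing genes, and 11.5 to 11.8 CPM in the others. Trav14n-2 was 0.0268 CPM in HFD VAT replicate 3, 0.0167 CPM in lean VAT replicate 2 and 0.0589 CPM in HFD LN replicate 2, at most 3 counts each, and 0 in the other libraries of these groups. With the others at 0 any count meets the criterion, so the Trav14n-2 flags do not reflect its size.

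The diet effect on Traj61 differed between VAT and LN by -9.75 on the log2 scale (edgeR quasi-likelihood test of the difference, adjusted p = 0.0461). Traj61 had no count in HFD VAT, so this fitted value depends on the prior count and is no bound.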

How the results depend on the processing

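Of 1348 alternative values for 86 results, 1154 kept their direction and side of the threshold, 85 lost a call, 3 gained one, 96 changed sign and 10 were counts that moved by over 1.5 times. DESeq2 called 5, 3, 5 and 3 V rows in HFD VAT against HFD LN, then lean VAT against lean LN, HFD VAT against lean VAT and the difference of diet effects, and 2, 3, 4 and 4 families; limma voom called 3 rows and 2 families in lean VAT against lean LN. The cause was not tested.

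The Trav14 share of HFD VAT against HFD LN changed sign on the log odds scale (0.0491) and with the top row in place of the family (3.28), and that of HFD VAT against lean VAT without the 3 VAT libraries with most missing genes (-7.81). The Trbv share outside Trbv12 changed sign with the top row for HFD VAT against HFD LN (-0.0352) and HFD LN against lean LN (0.0152), for lean VAT against lean LN (0.112) and the difference of diet effects (-0.147). Without the 3 VAT libraries it was 0.0453 for lean VAT against lean LN and -0.0382 for the difference of diet effects, and for VAT against LN it was -0.0579 on the log odds scale and -0.0456 by medians. Summed Trav CPM changed sign without scaling factors for HFD VAT against HFD LN (-10.9) and VAT against LN (-3.14), with RLE for the difference of diet effects (0.380), and without the 3 VAT libraries for that difference (10.1) and lean VAT against lean LN (-2.24). Summed Trbv CPM passed without scaling factors for VAT against LN (-519.8) and with RLE for HFD against lean (307.2), and the difference of diet effects was -169.7 without factors. Trav per Trac was -0.0628 for that difference on the log2 scale. Trbv per Trbc without the 3 VAT libraries was 3.83, 1.45, 2.64 and 0.837 for HFD VAT against HFD LN, then lean VAT against lean LN, VAT against LN and HFD VAT against lean VAT, and the difference of diet effects was -1.12 by medians. The effective number for HFD VAT against lean VAT was 0.248 by medians.

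Leaving out 1 library at a time, these differences, none past the threshold, ranged over both signs. Trav14 share: -5.74 to 4.82 for HFD VAT against HFD LN and -1.63 to 8.93 for HFD VAT against lean VAT. Trbv share outside Trbv12: -0.0227 to 0.0403, -0.0964 to 0.0453, -0.0440 to 0.0268, -0.113 to 0.0290 and -0.0369 to 0.105 for HFD VAT against HFD LN, then lean VAT against lean LN, VAT against LN, HFD VAT against lean VAT and the difference of diet effects. Trbv per Trbc, in that order: -3.13 to 1.31, -3.68 to 1.45, -2.29 to 0.274, -3.89 to 1.24 and -2.36 to 2.78, with -3.28 to 0.683 for HFD LN against lean LN. Summed Trav CPM: -0.539 to 10.0, -2.24 to 26.5 and -21.5 to 7.26 for HFD VAT against HFD LN, then lean VAT against lean LN and the difference of diet effects. For that difference summed Trbv CPM was -99.5 to 104.5 and Trav per Trac -0.648 to 0.703. The effective number was -1.13 to 0.327 for HFD VAT against lean VAT. Profile distance was -0.00303 to 0.0984, -0.00295 to 0.135 and -0.0416 to 0.00797 for HFD VAT against HFD LN, then lean VAT against lean LN and HFD LN against lean LN. Summed Trbv CPM for HFD against lean, 191.9 to 293.9, kept its sign and passed without lean VAT replicate 1.

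Replicate numbers showed no clear pairing of the libraries: 0 of 16 same-numbered pairs had a correlation of deviations over 0.1 (-0.0786 to 0.0393). Pairs were formed between tissues of a diet and between diets of a tissue. In 7 of the 16 pairs the best correlation was with the same number. Between tissues of a diet these were HFD replicates 1 and 3 and lean replicate 3. Such low correlations cannot exclude that same-numbered VAT and LN libraries of a diet came from the same animals. With the replicate block 1 V row was called in each tissue comparison and 0 elsewhere, and Trav14-1 was -4.81 (edgeR, adjusted p = 0.00727) and -5.14 (edgeR, adjusted p = 0.00649). Calls missed the threshold with the block for Traj61 in HFD VAT against lean VAT (edgeR, adjusted p = 0.144) and in the difference of diet effects (0.345), for Traj60, Dntt and Hmgb2 in HFD VAT against HFD LN (0.0518, 0.102 and 0.0667), and for Cd247, Cd8b1, Trbj1-2, Zbtb7b and Trdc in lean VAT against lean LN (0.0595, 0.0562, 0.0777, 0.0778 and 0.0815). The fit of only the groups compared was not run for families or for the difference of diet effects. With few Trav counts per library, families at or under 3 counts could not be told from absent ones.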
